A study of Mus musculus with 2 samples.

Results

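The transcripts of 8 genes named after the Schwann lineage, Sox10, Foxd3, Erbb3, Fabp7, Gpr37, Prss56, Ngfr and Tlx2, were followed through single cells of E11.5 mouse embryo heads. The 8 were chosen by symbol among the 32285 genes of the count matrices, with earlier results of these data known. Each genotype gave 1 library, from the pooled heads of 2 embryos sorted for GFP, which marks cells descended from Wnt1-Cre-expressing precursors (cranial neural crest and part of the brain). Control embryos were Tfap2a wt/flox; Tfap2b wt/flox and mutant embryos Tfap2a flox/flox; Tfap2b flox/flox, and both carried the r26 mTmG/mTmG reporter with Wnt1CRE, so that the control had also lost 1 copy of each gene in the marked cells. The question addressed here was how the 8 transcripts are spread over the cell types of the sorted head, and how each differed between the genotypes.

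Schwann cell precursors and satellite glia arise from neural crest cells that keep the transcription factor SOX10 on. These cells travel along and wrap young axons, and receive neuregulin from them through the receptor ERBB3. The same pool of precursors can give boundary cap cells, which sit where nerve roots enter the brain stem and spinal cord, and melanoblasts, the precursors of pigment cells. Sensory neurons of the cranial ganglia also come from neural crest and switch SOX10 off as they differentiate.

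After a filter on barcodes, 5625 control and 5587 mutant cells were kept, with a median of 13478 and 12234 UMIs (unique molecular identifiers, each standing for 1 captured RNA molecule). The libraries shared 5 cell barcodes. Of the Sox10-positive cells defined below, 98.8% held an Xist UMI in the control and 0 of 166 did in the mutant, while 92.8% held a UMI of a Y-linked gene in the mutant and 0 of 168 did in the control; sex and genotype therefore cannot be told apart in any value below. The targeted genes could not check the labels at this end of the transcript: in Sox10-positive cells Tfap2a stood at 281 control and 326 mutant UMIs and Tfap2b at 657 and 575, and whether these 3′ tags lie within the deleted part was not tested. With 1 library per genotype no test between genotypes is possible. All intervals are 95% intervals that cover counting error only, and levels are CPM, the UMIs of a gene per 1000000 UMIs of the same group of cells.

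Clustering without the 8 genes gave 3 classes. The mesenchyme-like class held 3756 control and 2815 mutant cells, the neuron-like class, which includes brain progenitors, 1609 and 2571, and the glia-like class 260 and 201. Cdh19, which encodes a cadherin of Schwann cell precursors, was among the leading genes of the last. Its cells were 4.62% (4.09% to 5.20%) of the kept control cells and 3.60% (3.12% to 4.12%) of the mutant cells. Independently of clusters, cells with 2 or more raw Sox10 UMIs were called Sox10-positive. These numbered 168 in the control (2.99%, 2.56% to 3.47%) and 166 in the mutant (2.97%, 2.54% to 3.45%), a difference of -0.02 percentage points (-0.66 to 0.63). Of them, 156 control and 161 mutant cells lay in the glia-like class.

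The label matched the place of 5 of the 8 genes. Sox10, Foxd3, Erbb3, Gpr37 and Prss56 had between 83.9% and 97.2% of their control UMIs and between 93.3% and 95.5% of their mutant UMIs in glia-like cells. Fabp7 and Ngfr did not: the class held 36.7% and 19.2% of the Fabp7 UMIs of control and mutant, and 13.2% and 12.5% of the Ngfr UMIs. Tlx2 had 85.9% of its control UMIs and 54.3% of its mutant UMIs in the class, but mostly in its neuron-like and sensory neuron-like cells, described below, and not in its Sox10-positive cells.

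**Figure D1:**
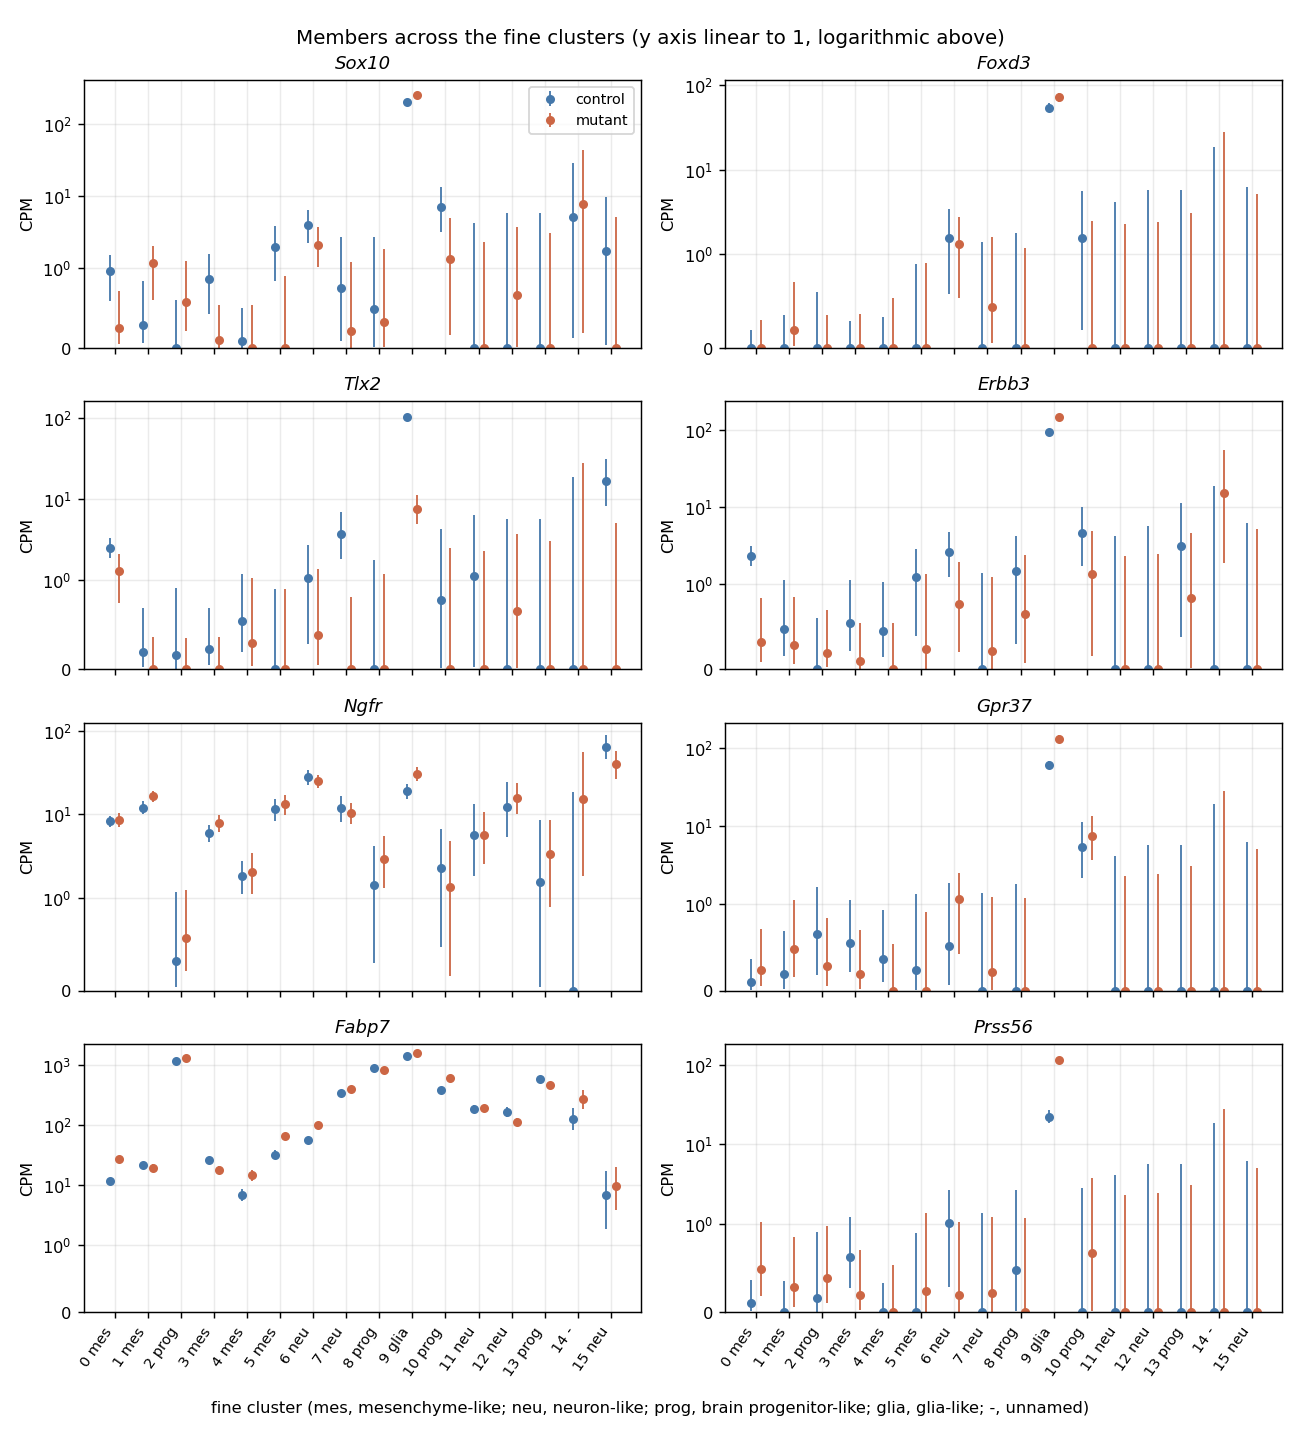
CPM of each member (y axis, linear to 1 and logarithmic above) in the 16 fine clusters (x axis), control in blue and mutant in orange, with 95% Poisson intervals. Sox10, Foxd3, Erbb3, Gpr37 and Prss56 stand high in the glia-like cluster 9, Fabp7 is next highest in brain progenitor-like cluster 2, and Ngfr is highest in neuron-like cluster 15.

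The glia-like class was not uniform. Clustered again without the members, its cells fell into 7 subclusters. Subcluster 1 was melanoblast-like (53 control and 45 mutant cells, led by Dct, an enzyme of pigment synthesis). Its melanoblast markers summed to 413 and 176 CPM, and its glia markers to 540 and 671 CPM, near those of subcluster 0 (538 and 668 CPM). Subcluster 2 was boundary cap-like (28 and 40 cells, with Egr2 among its leading genes). Subcluster 3 was sensory neuron-like (53 and 7 cells, with Neurog1 and Dll1, genes of newly forming neurons). Its cells were not all neurons by these values: 5 and 3 of them were Sox10-positive, and its proliferation genes summed to 1170 and 455 CPM. Subcluster 5 was neuron-like (39 and 3 cells, with Stmn2 and Ntrk3). Subcluster 6 was mesenchyme-like, and 18 of its 29 cells were called doublets. Subclusters 0 (50 and 64 cells) and 4 (20 and 30 cells, led by cell division genes such as Nusap1 and Ube2c) met no marker list and stayed unnamed, although both were rich in Sox10. Cells of subclusters 3 and 5 made up 35.4% of the glia-like cells in the control and 4.98% in the mutant. A level over the whole class therefore averaged different mixtures of cells in the 2 genotypes, and the class values below are followed by those in Sox10-positive cells and in single subclusters.

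**Figure D2:**
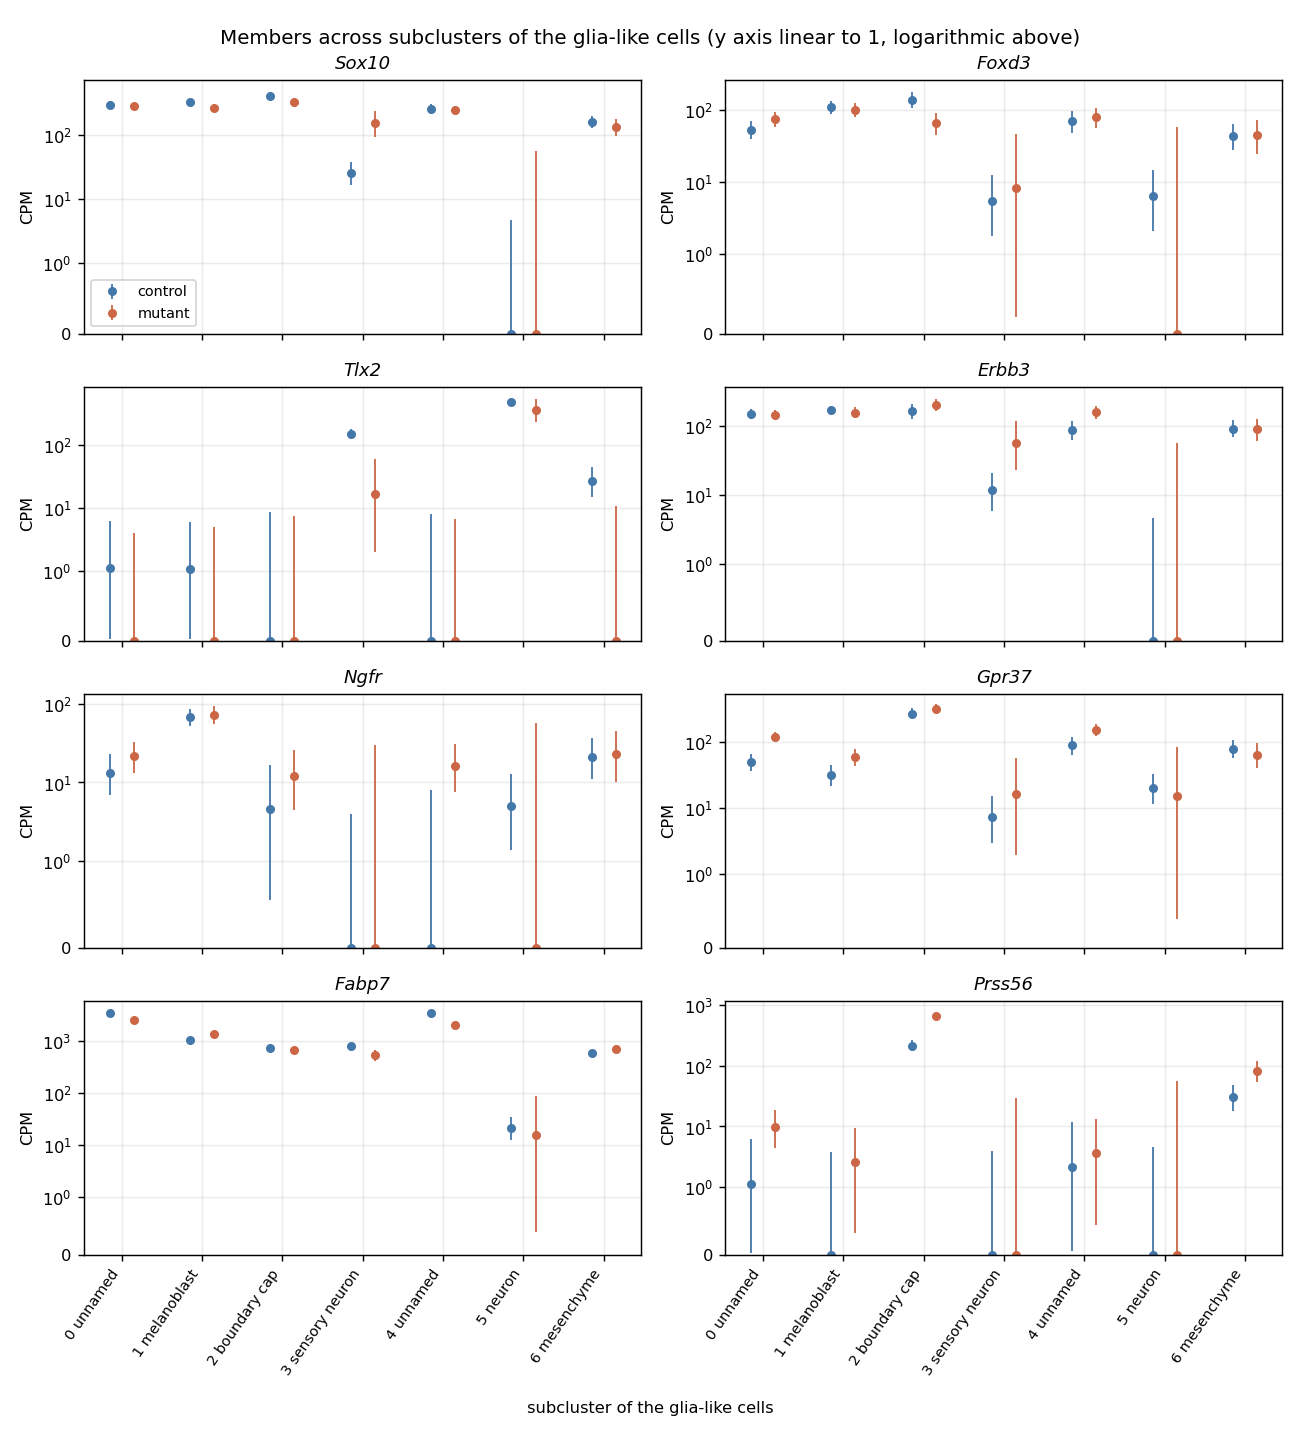
CPM of each member (y axis, linear to 1 and logarithmic above) in the 7 subclusters of the glia-like cells (x axis), control in blue and mutant in orange, with 95% Poisson intervals. Prss56 stands out in subcluster 2, Ngfr in subcluster 1, Fabp7 in subclusters 0 and 4, and Tlx2 in subclusters 3 and 5, where control Sox10 is low or at 0.

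Of the transcription factors, Sox10, the regulator that holds the glial state, was read at 197 CPM (185 to 210, 997 UMIs) in control glia-like cells and 252 CPM (235 to 270, 826 UMIs) in mutant ones. The log2 ratio of mutant over control was 0.35 (0.22 to 0.49). It was -0.21 (-0.35 to -0.06) once subclusters 3, 5 and 6 were left out, a choice made after these values were seen. Over all kept cells, where no class is drawn, Sox10 stood at 13.0 CPM in the control and 11.2 CPM in the mutant. The highest level was in boundary cap-like cells, with 410 CPM (353 to 475) in the control and 328 CPM (280 to 382) in the mutant. It was 329 and 264 CPM in melanoblast-like cells, 298 and 280 CPM in subcluster 0, and 257 and 244 CPM in subcluster 4. All 4 of these log2 ratios were below 0, and the intervals lay below 0 in the boundary cap-like (-0.64 to -0.01) and melanoblast-like cells (-0.58 to -0.06). No Sox10 UMI was found in the 42 cells of subcluster 5.

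Outside the glia-like class cells with Sox10 were rare. Cells with a Sox10 UMI made up 0.77% (control) and 0.28% (mutant) of the mesenchyme-like class, and 0.75% and 0.39% of the neuron-like class. In glia-like cells the shares were 66.9% and 91.0%. With each cell thinned to 5000 UMIs the 95% intervals of the glia-like shares ran from 43.7% to 56.3% in the control and from 65.2% to 78.1% in the mutant, and the mesenchyme-like shares were 0.40% and 0.18%, from median depths of 17883 and 15315 UMIs in glia-like cells and 14563 and 14471 in mesenchyme-like cells. Erbb3 UMIs were found in 1.33% and 0.32% of mesenchyme-like cells.

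Foxd3, a forkhead factor of early neural crest that keeps precursors undifferentiated, was read at 54.6 CPM (48.3 to 61.4) in control and 72.0 CPM (63.1 to 81.8) in mutant glia-like cells, a log2 ratio of 0.40 (0.14 to 0.66). In Sox10-positive cells the levels were 78.1 and 74.0 CPM and the ratio -0.08 (-0.35 to 0.19). The direction differed between subclusters. In the boundary cap-like cells Foxd3 was 137 CPM (104 to 176, 60 UMIs in 28 cells) in the control and 64.0 CPM (43.8 to 90.4, 32 UMIs in 40 cells) in the mutant, a log2 ratio of -1.10 (-1.76 to -0.45), and the intervals of the 2 levels did not overlap. A Foxd3 UMI was found in 75.0% of these cells in the control and 45.0% in the mutant, or 39.3% and 27.5% after thinning. In subcluster 0 the levels were 52.2 and 74.1 CPM (log2 ratio 0.50, -0.05 to 1.07), and in melanoblast-like cells 108 and 99.8 CPM (-0.11, -0.56 to 0.33).

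Tlx2, a homeobox factor known from autonomic and enteric neurons, was the member furthest apart. All kept cells held 619 Tlx2 UMIs in the control and 46 in the mutant, a level 12.6-fold lower in the mutant (log2 ratio -3.66, -4.12 to -3.23). In glia-like cells the counts were 532 and 25 UMIs, and the level 105 CPM (96.5 to 115) and 7.63 CPM (4.94 to 11.3), a log2 ratio of -3.79 (-4.43 to -3.21). Of 6462 genes with 100 or more UMIs in 1 or both libraries of this class, it had the 7th lowest ratio. Tlx3, its paralog, was the 4th lowest, with 479 and 16 UMIs, and the neuronal genes Sst, Rgs4, Cntn2 and Stmn2 were also among the lowest 8.

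Tlx2 did not share cells with Sox10. Of 74 control cells with 2 or more Tlx2 UMIs, 2 held a Sox10 UMI, and of 6 such mutant cells 0 did. Sox10-positive cells held 2 Tlx2 UMIs in the control and 0 in the mutant, so no ratio is given there. All 39 control cells and all 3 mutant cells of neuron-like subcluster 5 held Tlx2, with medians of 10 and 9 UMIs per cell. The level in those cells was 475 CPM (428 to 525) and 355 CPM (225 to 532), with overlapping intervals. In sensory neuron-like subcluster 3 Tlx2 was found in 32 of 53 control cells and 1 of 7 mutant cells, at 147 CPM (124 to 174) and 16.2 CPM (1.97 to 58.7). Over all kept cells, 135 control and 37 mutant cells held a UMI of both Isl1 and Pou4f1, transcription factors of sensory ganglion neurons. Of these, 60.0% (51.2% to 68.3%) and 10.8% (3.03% to 25.4%) held Tlx2. Subclusters 3 and 5 together held 92 control and 10 mutant cells. The 37 mutant cells therefore came mostly from other clusters, and the mix of cells was not held fixed. The most similar genes over 27 points (each a fine cluster of 1 library with 50 or more cells, so that points share libraries) were Ppp1r1c (Pearson r = 0.96) and Cdhr1 (r = 0.93). The 7 measured sensory neuron markers all stood 1.5-fold or more lower in mutant glia-like cells, against 6.84% of all genes measured there, summing to 1130 and 222 CPM. Fewer Tlx2 cells and less Tlx2 RNA per cell cannot be told apart in the class totals, and 3 mutant cells are too few to set the level per cell.

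**Figure D3:**
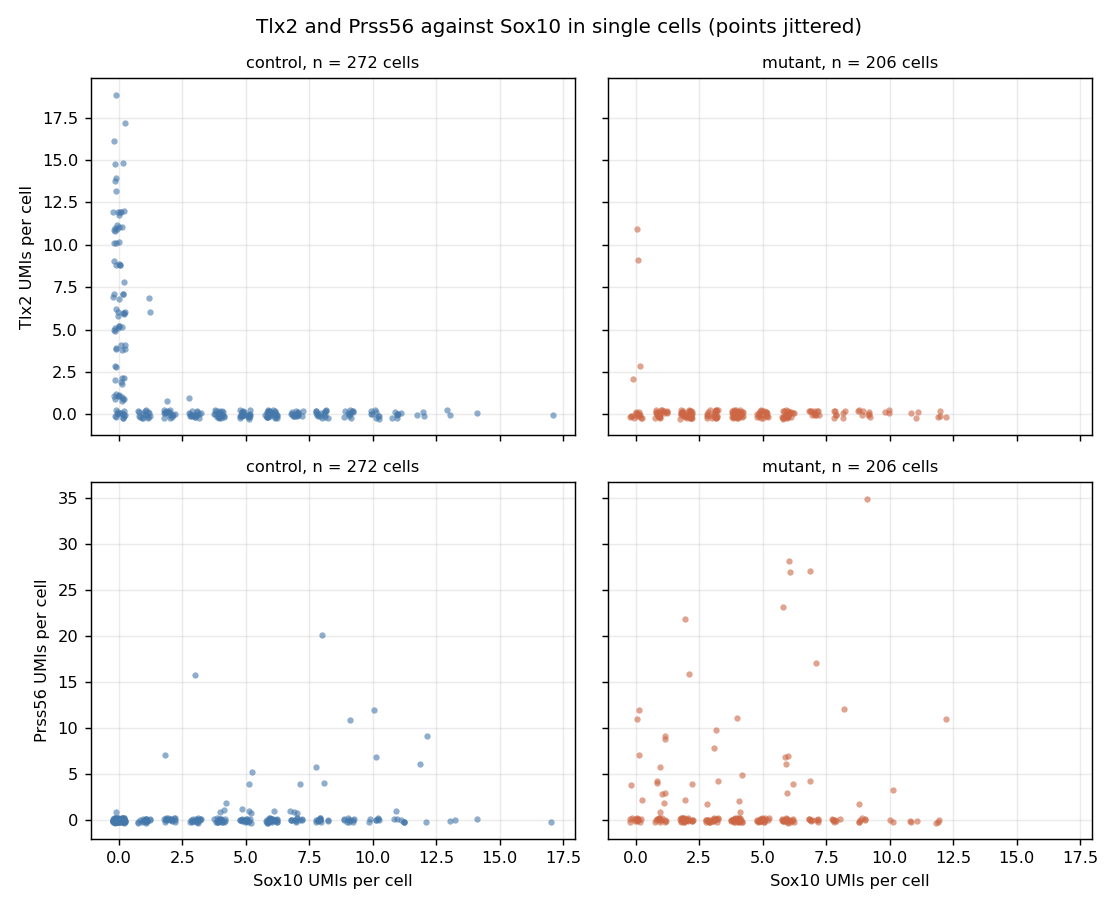
UMIs per cell of Tlx2 (top) and Prss56 (bottom) against Sox10 (x axis) in the 272 control and 206 mutant cells that were glia-like or Sox10-positive, 1 point per cell, jittered. Tlx2 cells lie at 0 or 1 Sox10 UMIs apart from cells with a single Tlx2 UMI, and cells with 2 or more Prss56 UMIs all hold 2 or more Sox10 UMIs in the control but spread down to 0 in the mutant.

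Of the receptors, Erbb3, which carries the neuregulin signal from axons, was read at 94.0 CPM (85.7 to 103) in control and 149 CPM (136 to 162) in mutant glia-like cells, a log2 ratio of 0.66 (0.48 to 0.85). In Sox10-positive cells it was 141 CPM (128 to 154) and 151 CPM (138 to 166), with a ratio of 0.11 (-0.08 to 0.30), and 88.7% and 87.3% of those cells held an Erbb3 UMI. The ratio was 0.46 when the cells were thinned to 5000 UMIs and chosen again. Erbb3 was level over the Sox10-rich subclusters of the control, at 151, 170 and 164 CPM in subclusters 0, 1 and 2, whose intervals overlapped. Subcluster 4 stood lower in the control, at 88.0 CPM (63.1 to 119), and at 161 CPM (129 to 198) in the mutant. In mesenchyme-like cells 70 control and 9 mutant Erbb3 UMIs were counted, 46 of the former in the 1208 control cells of fine cluster 0.

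The rest of the neuregulin list was read in both sets of cells. Of 7 measured genes, Erbb4, Adam17 and Gab1 were 1.5-fold or more higher in mutant glia-like cells, Nrg1 lower and 3 within 1.5-fold, where 10.2% of all genes measured in the class were that much higher and 6.84% lower. Nrg1, the axonal ligand, stood at 70 and 6 UMIs. In Sox10-positive cells Erbb4, another neuregulin receptor, was the only one of 6 measured genes 1.5-fold or more apart, with 19 and 41 UMIs (log2 ratio 1.34, 0.53 to 2.21), where 6.68% of all genes were higher and 4.32% lower. Erbb2, the partner that ERBB3 needs for signalling, was 24.1 and 20.3 CPM there (-0.25, -0.76 to 0.26).

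Ngfr, the low-affinity neurotrophin receptor p75, was highest within the class in melanoblast-like subcluster 1 and was also found in many cells outside the class. Melanoblast-like cells held it at 69.0 CPM (53.3 to 87.7) in the control and 73.5 CPM (55.5 to 95.5) in the mutant. The boundary cap-like cells had 2 and 6 Ngfr UMIs, and subcluster 4 had 0 and 9. The melanoblast markers themselves stood lower in the same cells of the mutant, summing to 413 and 176 CPM, with Mitf, Dct, Pmel and Kit each 1.5-fold or more lower; their part in the Ngfr value was not tested. Over all Sox10-positive cells Ngfr was 26.8 and 31.9 CPM (log2 ratio 0.25, -0.19 to 0.69), and the ratio turned to -0.79 when the cells were thinned to 5000 UMIs and chosen again. An Ngfr UMI was found in 27.4% and 30.1% of them (16.9% and 12.0% of the 77 and 83 cells chosen after thinning), in 8.71% and 10.8% of mesenchyme-like cells and in 8.45% and 7.62% of neuron-like cells. Among the fine clusters its highest level was in the small neuron-like cluster 15 (25 and 39 cells, led by Sncg, Scn9a and Prph), at 64.5 CPM (45.6 to 88.5) and 40.0 CPM (26.8 to 57.5), then in fine cluster 6 (27.8 CPM) and the glia-like cluster (18.9 CPM) in the control. The last 2 had overlapping intervals, and in the mutant the glia-like cluster (30.6 CPM) stood before fine cluster 6 (24.9 CPM), again with overlap, and its interval also overlapped that of cluster 15. Tfap2a had the profile most like that of Ngfr over the 27 points (r = 0.87).

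The neurotrophin list gave no gene 1.5-fold or more higher in mutant glia-like cells among 7 measured. Of the 7, 3 were lower, against 6.84% of all genes, and 4 were within 1.5-fold. In Sox10-positive cells the 4 genes with the minimum of 30 UMIs, led by Maged1 (240 and 246 CPM), were within 1.5-fold.

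Gpr37, an orphan receptor of myelinating glia, was higher in the mutant in each of the Sox10-rich subclusters 0, 1, 2 and 4. It was read at 60.5 CPM (53.9 to 67.7) and 131 CPM (119 to 144) in glia-like cells, a log2 ratio of 1.12 (0.90 to 1.33), and at 84.0 CPM (74.5 to 94.4) and 134 CPM (121 to 148) in Sox10-positive cells, a ratio of 0.67 (0.44 to 0.90). Over all kept cells the level was 1.46-fold higher. The difference lay mostly outside the boundary cap-like cells, where the level was highest: 274 CPM (227 to 327) in the control and 322 CPM (274 to 376) in the mutant, with overlapping intervals. In subcluster 0 the 50 control cells held 45 UMIs of Gpr37 and the 64 mutant cells 113, a log2 ratio of 1.28 (0.77 to 1.81) after scaling. The levels were 90.1 and 156 CPM in subcluster 4 and 32.4 and 59.1 CPM in melanoblast-like cells. A Gpr37 UMI was found in 53.0% and 65.7% of Sox10-positive cells, and in 29.9% and 42.2% after thinning, where 77 and 83 cells remained positive.

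Fabp7, a fatty acid binding protein of glial precursors and of radial glia in the brain, went in opposite directions in different cells. In glia-like cells it was read at 1399 CPM (1366 to 1432) and 1536 CPM (1493 to 1579), a log2 ratio of 0.13 (0.08 to 0.19). In Sox10-positive cells it was 1812 CPM (1767 to 1858) and 1476 CPM (1432 to 1521), a ratio of -0.30 (-0.35 to -0.24), which was 0.06 when the cells were thinned to 5000 UMIs and chosen again. Subcluster 0 held 3477 and 2473 CPM, with medians of 56 and 26 UMIs per cell, and subcluster 4 held 3360 and 1986 CPM. In melanoblast-like cells the order was the other way, with 1022 CPM (959 to 1088) and 1318 CPM (1238 to 1402). Boundary cap-like cells had 716 and 652 CPM, with overlapping intervals. Fabp7 counts per cell were uneven, and the 10 highest of the 20 control cells in subcluster 4 held 71.7% of their UMIs.

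Across the fine clusters of the control the order was the glia-like cluster (1389 CPM), brain progenitor-like fine clusters 2 (1158 CPM), 8 (862 CPM) and 13 (566 CPM), each step larger than the counting intervals. Fine cluster 2, led by genes such as Hes5 and Sox3, had 488 control and 853 mutant cells and held 1158 and 1275 CPM of Fabp7. Over all kept cells Fabp7 stood 1.45-fold higher in the mutant, and the part of cell numbers in this was not tested. Nrarp and Dtx4 (both r = 0.94), Notch1 and Sox2 (both r = 0.92) had the most similar profiles, and of the other 7 members Gpr37 had the highest r with it (0.45). Fabp5, a paralog of Fabp7, was lower in the mutant in glia-like cells (1615 and 910 CPM) and in Sox10-positive cells (1479 and 943 CPM, log2 ratio -0.65, -0.72 to -0.58).

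Prss56, a secreted serine protease and a marker of boundary cap cells, showed the largest difference among the members read in Sox10-positive cells. Over all kept cells 129 UMIs were counted in the control and 395 in the mutant, a level 3.26-fold higher. It was read at 22.4 CPM (18.4 to 26.9) and 115 CPM (103 to 127) in glia-like cells, a log2 ratio of 2.36 (2.05 to 2.68) and the 6th highest of the 6462 genes. In Sox10-positive cells it was 36.6 CPM (30.4 to 43.7) and 106 CPM (94.6 to 119), a ratio of 1.54 (1.23 to 1.85). Boundary cap-like subcluster 2 held 94 of the 129 control UMIs and 335 of the 395 mutant UMIs, at 214 CPM (173 to 262) and 670 CPM (600 to 746), a ratio of 1.64 (1.31 to 1.99).

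A Prss56 UMI was found in 14.3% (control) and 16.9% (mutant) of Sox10-positive cells, or 10.4% and 21.7% of those chosen after thinning. In subcluster 2 the share of cells with a UMI was 67.9% (control) and 82.5% (mutant), or 42.9% and 77.5% after thinning, and the median was 1 and 6 UMIs per cell. The 10 highest cells held 89.4% of the control UMIs there and 62.1% of the mutant UMIs. Cells with 2 or more Prss56 UMIs numbered 14 in the control and 41 in the mutant, and 14 and 27 of them were Sox10-positive. In the Sox10-rich subclusters 0, 1 and 4 Prss56 stayed at 0 to 9 UMIs. Mesenchyme-like subcluster 6, where 18 of 29 cells were called doublets, held 17 control and 28 mutant UMIs (log2 ratio 1.43, 0.51 to 2.39). Within Sox10-positive cells, 24 of 24 control cells and 26 of 28 mutant cells with Prss56 also held Gpr37. Of those without Prss56, 45.1% and 60.1% held Gpr37. Most Prss56 UMIs lay in subcluster 2, where Gpr37 was also highest (274 and 322 CPM). The part of the subclusters in this overlap was not tested. Depth in subcluster 2 was a median of 13757 and 11018.5 UMIs per cell.

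The fixed boundary cap list went both ways in subcluster 2. Egr2, the transcription factor of boundary cap cells, was 153 and 94.0 CPM (log2 ratio -0.70, -1.27 to -0.14). Npr3 was 95.8 and 16.0 CPM (-2.58, -3.88 to -1.47). Wif1 was 29.6 and 52.0 CPM (0.81, -0.20 to 1.89), and Hey2 was 228 and 292 CPM (0.36, -0.02 to 0.74). In these cells Prss56 and Foxd3 thus lay on opposite sides of the control with intervals that excluded 0.

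The RefSeq promoters of the 2 members that stood higher in mutant Sox10-positive cells are shown for reference, each from 250 bases before to 50 bases after the transcript start on GRCm38.p6 and on the strand of the gene. Prss56 lies at chr1:87183064-87183363 on the plus strand and Gpr37 at chr6:25689931-25690230 on the minus strand.
Prss56: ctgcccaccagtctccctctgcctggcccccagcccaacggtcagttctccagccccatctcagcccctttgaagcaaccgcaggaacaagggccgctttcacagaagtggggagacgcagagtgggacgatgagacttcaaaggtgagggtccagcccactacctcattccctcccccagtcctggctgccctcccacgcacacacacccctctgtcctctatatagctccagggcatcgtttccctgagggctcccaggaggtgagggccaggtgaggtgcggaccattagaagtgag
Gpr37: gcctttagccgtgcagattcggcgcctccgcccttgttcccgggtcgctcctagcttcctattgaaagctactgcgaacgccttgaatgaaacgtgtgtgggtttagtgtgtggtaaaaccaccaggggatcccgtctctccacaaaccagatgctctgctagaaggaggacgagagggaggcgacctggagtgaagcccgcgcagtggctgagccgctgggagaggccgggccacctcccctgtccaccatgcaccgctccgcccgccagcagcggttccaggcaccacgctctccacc
Both windows are in lower case throughout because no searched motif was found to capitalise. The motifs were GCCNNNGGC, the palindrome bound by TFAP2 factors, and ACAAAG and ACAATG, half-sites of SOX factors, each read on both strands. The promoter table held 5 of the 8 members (Foxd3, Fabp7, Gpr37, Prss56 and Ngfr), and 0 of their 5 windows held any of the 3 motifs. Among all 32851 promoter windows 16.6%, 18.7% and 12.6% held them. By GENCODE the genes lie at chr15:79154908-79165240 (Sox10), chr4:99656299-99658622 (Foxd3), chr6:83068324-83070293 (Tlx2), chr10:128567523-128589652 (Erbb3), chr11:95568818-95587735 (Ngfr), chr6:25665878-25690729 (Gpr37), chr10:57784881-57788450 (Fabp7) and chr1:87183313-87188405 (Prss56) on GRCm38. Of the 8, Foxd3 overlaps Gm23366 and Erbb3 overlaps Mir6917, each on the same strand.

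Set side by side, the 8 members were 4 higher by 1.5-fold or more in mutant glia-like cells (Erbb3, Gpr37, Prss56 and Ngfr), 1 lower (Tlx2) and 3 within 1.5-fold. Ngfr or Erbb3 came within 1.5-fold in glia-like cells under some alternatives given below. Of the 10800 genes with 30 or more UMIs over both libraries in that class, 10.2% were 1.5-fold or more higher and 6.84% lower, and the median log2 ratio was 0.53 over the members and 0.05 over all these genes. Because the members were chosen with earlier results of these data known, these shares and medians only describe the list. In Sox10-positive cells 7 members could be measured, 1 of which, Sox10, chose the cells. There Gpr37 and Prss56 were higher and none was lower, against 6.68% and 4.32% of 10203 genes, and the 6 members other than Sox10 had a median of 0.18 against 0.01 over all genes. Leaving subclusters 3, 5 and 6 out of the glia-like class gave the same count, 2 higher and 0 lower of 7 measured members, against 7.29% and 4.91% of 9880 genes.

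**Figure D4:**
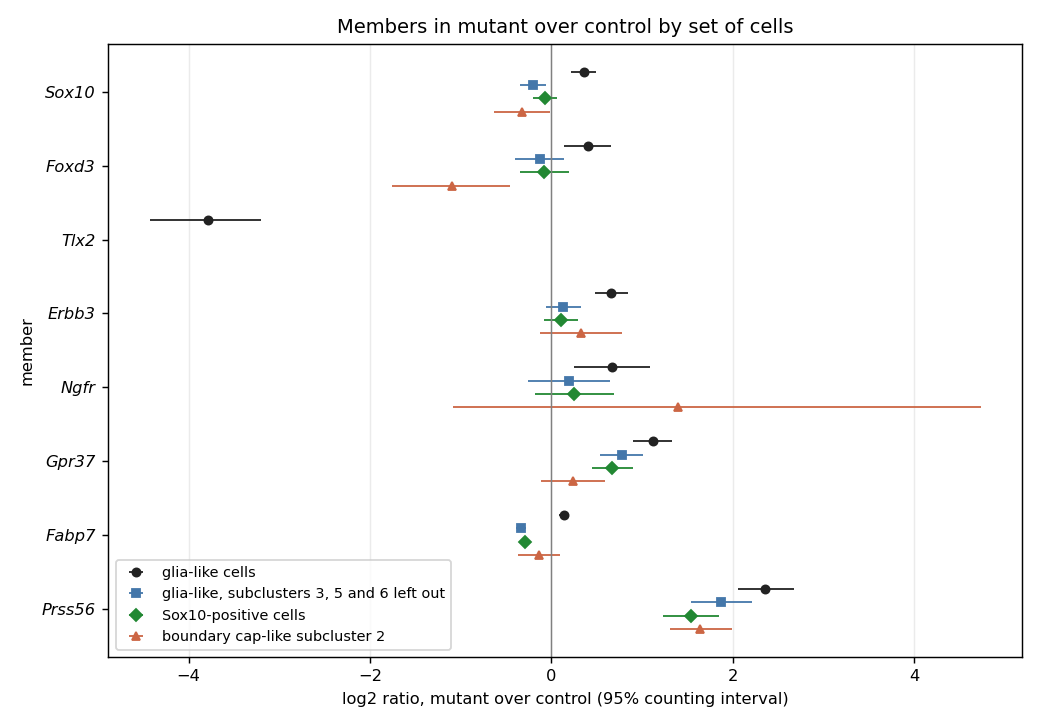
Log2 ratio of mutant over control (x axis) for each member (y axis) in 4 sets of cells, with 95% counting intervals and no value where a library had 0 UMIs. Foxd3 and Fabp7 lie above 0 in the whole glia-like class and below 0 in the 3 other sets, and the points of Sox10 do the same. Sox10-positive cells were chosen by their Sox10 UMIs, so the Sox10 value in that set cannot show a direction. In that set the intervals of Sox10 (-0.20 to 0.06) and Foxd3 (-0.35 to 0.19) span 0. Prss56 and Gpr37 lie above 0 in all 4.

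Members were read together in most cells. Of the 7 members other than Sox10, between 3 and 5 were found in 138 of 168 control and 142 of 166 mutant Sox10-positive cells, and no such cell held none or all 7. Over the 27 cluster points Sox10, Foxd3 and Erbb3 had the closest profiles of the members, with r of 0.96 to 0.97 between them, and r of Sox10 was 0.94 with Gpr37, 0.92 with Prss56, 0.81 with Tlx2, 0.43 with Ngfr and 0.39 with Fabp7. The glia-like fine cluster holds both the Sox10-rich cells and the Tlx2 cells of subclusters 3 and 5, and its part in the value for Tlx2 was not tested.

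The myelin and Schwann cell differentiation list went both ways. In glia-like cells 9 of its 13 measured genes were 1.5-fold or more higher, 1 lower (Pou3f1) and 3 within, against 10.2% and 6.84% of all genes, and in Sox10-positive cells 6 were higher (Mbp, S100b, Dhh, Mal and Gas7 among them), 2 lower (Gfra3 and Pou3f1) and 5 within, against 6.68% and 4.32%. Without subclusters 3, 5 and 6 the class had 5 of the 13 higher, 4 lower and 4 within, against 7.29% and 4.91% of all genes, and in melanoblast-like cells 1 of 11 was higher, 3 were lower and 7 within, with a median log2 ratio of -0.0078. Mbp, which encodes a protein of compact myelin, was 29.5 and 47.3 CPM in Sox10-positive cells (log2 ratio 0.68, 0.30 to 1.07), and S100b, a calcium-binding protein of glia, had 7 and 25 UMIs. Of the 17 neural crest transcription factors, Sox9 and Zic1 were higher in Sox10-positive cells, Mitf, Twist1 and Msx1 lower and 12 within 1.5-fold. Twist1 and Msx1 are also mesenchyme genes, and the summed mesenchyme markers were 294 and 218 CPM in these cells. The mix of cells within the Sox10-positive set (the melanoblast-like share was 30.4% and 25.3%, and the boundary cap-like share 15.5% and 16.9%) was not held fixed in these values. The 6 proliferation genes were all within 1.5-fold in both sets of cells.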

How the data were processed

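Heads of embryonic day 11.5 mouse embryos were sorted for GFP and run on the 10X Genomics Chromium 3′ v3.1 chemistry, 1 library per genotype. The authors deposited filtered matrices of UMI counts per gene and barcode (Cell Ranger 6.0.0 per the file headers; mm10 and bcl2fastq per the labels; the strand setting is not given in the sources used here). Raw counts were used. Barcodes with 200 to 7500 genes and at most 10% mitochondrial UMIs were kept. Cells were integrated in Seurat 5.3.0 (2000 variable genes, 30 dimensions) without the 8 members, Tfap2a, Tfap2b and the genes Xist, Tsix and Y-linked genes, and clustered at a resolution of 0.05 for classes and 0.4 for fine clusters. Glia-like cells were clustered again (20 dimensions, resolution 0.5). Clusters were named from marker lists against the other cells. Doublets were called with Scrublet in scanpy 1.11.5 and kept (91 control and 166 mutant kept cells), and were removed in an alternative.

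UMIs were summed per library and group and divided by the group total. Levels have exact Poisson intervals, shares Clopper-Pearson intervals and log2 ratios exact conditional binomial intervals, all at 95%, and the interval of a difference of shares was built from those of both shares. These cover counting error only, and the floor for a count of 0 was 3 UMIs. A gene was measured with 30 or more UMIs over both libraries. Thinned shares leave out 121 control and 173 mutant cells under 5000 UMIs. Library totals were 83542433 control and 79206144 mutant UMIs. The ratio script was tested on simulated data.

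The members and gene lists were chosen with earlier results of these data known. Named were all 8 members, genes of the fixed lists that were 1.5-fold or more apart or among the 4 with most UMIs, the 8 highest and 8 lowest ratios among genes with 100 or more UMIs in 1 or both libraries (Xist, Tsix, Y-linked, haemoglobin and Gm genes not named), and the genes with the closest profile, by Pearson r of log2(CPM + 1). Egr2, Hey2 and Erbb2, and genes given by subcluster, were named for their list after their values were seen. Gene positions are from GENCODE M21 (32158 of the 32285 gene identifiers were found there) and promoter sequences from RefSeq on GRCm38.p6. Alternatives covered the clustering, doublets, weighting per cell, thinning, TMM scaling (edgeR 4.0.16), the barcode filter and the Sox10 threshold. Some genes of the lists were counted with their list but are not reported by name here.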

Additional observations from a re-analysis of the deposited data

Results flagged for a closer look

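Erbb3 and Fabp7 lay on opposite sides of the control in different cells, with counting intervals that excluded 0 on both sides, among classes and subclusters with 20 or more cells per library. Erbb3 had a log2 ratio of 0.87 (0.32 to 1.44; 41 and 89 UMIs) in the cycling subcluster 4 and of -2.55 (-3.74 to -1.55; 70 and 9 UMIs) in mesenchyme-like cells. Fabp7 had a log2 ratio of 0.54 (0.42 to 0.67; 995 and 1092 UMIs) in mesenchyme-like cells and of -0.76 (-0.87 to -0.65; 1566 and 1098 UMIs) in subcluster 4. Sox10 and Foxd3 did the same when the whole glia-like class, with its different mixtures of cells, was counted. Sox10 was 0.35 (0.22 to 0.49) there and -0.93 (-1.78 to -0.14) in mesenchyme-like cells. The latter value rests on 48 and 19 UMIs, found in 29 of 3756 control and 8 of 2815 mutant cells. Foxd3 was 0.40 (0.14 to 0.66) in the whole glia-like class and -1.10 (-1.76 to -0.45) in subcluster 2. With 1 library per genotype these differences were not tested.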

How the results depend on the processing

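No paired analysis was possible because each genotype has 1 library, and for the same reason no replicate could be left out. Among results that answer a comparison, 35 values under alternatives stayed within the counting interval of the main value (counts within 1.5 times) and 5 did not, all 5 from leaving subclusters out of the glia-like class, an alternative chosen after seeing the data. Without the neuron subclusters 3 and 5 the median log2 ratio of the members in glia-like cells was 0.040, and without subclusters 3, 5 and 6 it was 0.13, in place of 0.53. The members 1.5-fold or more apart numbered 3 and 2 in place of 5. They numbered 4 under 3 other settings, counted above as having stayed. Ngfr came within 1.5-fold with equal weight per cell (log2 ratio 0.58) and with thinned cells (0.41). Erbb3 did so with the stricter barcode filter (0.49). The difference of the share of glia-like cells was 0.52 percentage points without subclusters 3, 5 and 6, in place of -1.02. Of single members, Sox10 (-0.16 and -0.21), Foxd3 (-0.073 and -0.13) and Fabp7 (-0.24 and -0.33) changed sign in glia-like cells under the same 2 settings, which leave out cells by construction, and Fabp7 in Sox10-positive cells was 0.057 with cells thinned to 5000 UMIs, where the cause was not tested. Of the other values for single members, 27 moved out of their counting interval and 141 did not. Among the 27, Ngfr in Sox10-positive cells was -0.79 with cells thinned to 5000 UMIs, in place of 0.25, and the cause was not tested. Foxd3 and Erbb3 in Sox10-positive cells and the difference of the share of Sox10-positive cells, whose intervals span 0, also changed sign under some settings but stayed within those intervals. Small groups limit the precision: subcluster 5 has 3 mutant cells, subcluster 3 has 7 and subcluster 2 has 40.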

Other observations

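Outside the members, Sox10-positive cells differed most in a few genes. Among 5146 genes with 100 or more UMIs in 1 or both libraries, those named with the highest ratios in the mutant were Arhgap6 (6 and 332 UMIs), Cnmd (33 and 170), Igfbp5 (276 and 1083), Col9a2 (82 and 274), Cytl1 (53 and 162), Apoe (207 and 577) and Hebp1 (56 and 151). Prss56 itself ranked 5138th of these 5146 from the lowest. Cnmd, Igfbp5, Cytl1 and Col9a2 were also among the 8 highest in glia-like cells, as were Arhgap6 and Sema3c. The 8 lowest in Sox10-positive cells were Hist1h2ak (138 and 13 UMIs), Crabp1 (1178 and 230), Barx1 (186 and 39), Prdm12 (280 and 61), Gfra2 (137 and 30), Ctsk (102 and 23), Dct (184 and 43) and Elavl4 (292 and 81). Igfbp5 encodes a secreted binding protein of insulin-like growth factors, and Col9a2 a chain of collagen IX.

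The remaining lists are given for glia-like cells, where 10.2% of all genes measured were 1.5-fold or more higher in the mutant and 6.84% lower. Cells of subclusters 3 and 5 made up 35.4% of these cells in the control and 4.98% in the mutant. Of 7 measured paralogs of the members, Sox9 was 1.5-fold or more higher in the mutant, Fabp5 and Tlx3 were lower and 4 were within. Of the 4 boundary cap genes, Wif1, Hey2 and Npr3 were higher over the whole class and Egr2 was within 1.5-fold. Of 4 measured genes of dissociation stress, Jun was higher (130 and 238 CPM), Dusp1 lower and 2 within. Of the 17 neural crest transcription factors, Sox5, Sox9, Snai2, Tfap2a and Zic1 were higher, Twist1 and Msx1 lower and 10 within. No marker of endothelium, epithelium, immune cells, muscle or blood reached 30 UMIs, and each of these lists summed to at most 8.85 CPM in either library. Neuron markers summed to 2347 and 367 CPM, autonomic neuron markers to 26.1 and 12.2 CPM, mesenchyme markers to 182 and 197 CPM, and brain progenitor markers to 1792 and 1057 CPM.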
